A study of Mus musculus with 56 samples.

Results

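The 150 genes described here were those whose transcripts followed a 12-h pattern most closely in the anterior hypothalamus of mice fed only by day. They came from 16245 of the 17564 genes in the table, those that reached a deposited value of 1 in 80% or more of the 56 mice. A 24-h and a 12-h cosine curve were fitted together to each gene's log2(value + 1) in the 28 day-fed mice, and the genes were ranked by the F statistic of the 12-h terms, which compares what those terms explain with the spread between mice. The members were thus chosen by measured values, as the 150 of highest F in DRF (17.4 to 75.5). Their 12-h pattern in day-fed mice is therefore a description and carries no test, and the tests were made on the night-fed mice, which the ranking had not used, apart from a comparison of mean levels that also includes the day-fed mice.

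All mice were female C57BL/6J, 9 weeks old at collection, and were kept in 12 h of light and 12 h of dark, with lights on at Zeitgeber time (ZT) 0. Food was offered without limit first and then for 7 days either only in the light phase (ZT0 to ZT12, daytime-restricted feeding, DRF) or only in the dark phase (ZT12 to ZT24, nighttime-restricted feeding, NRF, the reference and the natural feeding time of a nocturnal animal). Poly(A) RNA was sequenced every 4 h from ZT0 to ZT24, with 4 mice per regimen at each of these 7 times and 1 sample per mouse. ZT0 and ZT24 are the same clock time, so the 12-h curve rested on 6 distinct clock times of a single day. In such bulk tissue, fewer cells of a type and less RNA per cell cannot be told apart.

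Of the 12 members with the highest F, Herpud1, Sdf2l1, Creld2, Pdia4, Manf and Fkbp4 belonged to the lists of protein folding genes. The endoplasmic reticulum (ER) folds secreted and membrane proteins with the help of chaperones and disulfide isomerases, and when unfolded proteins collect there, the unfolded protein response (UPR) raises the transcription of these helpers through the factors ATF6, XBP1 and ATF4. In the cytosol, the heat shock response driven by HSF1 does the same for HSP70, HSP40 and HSP90 and their co-chaperones. In the liver, several of these genes are known to cycle with feeding and with a period near 12 h, and in the hypothalamus the secretory load of peptide neurons depends on the same machinery.

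Promoter sequences were taken from RefSeq (GRCm38.p6), each spanning 250 bases before to 50 after the annotated start. A promoter was present for 130 of the 150 members (166 promoters, as some genes have several) and for 12810 of the genes tested (16306 promoters). The 5 promoters below belong to members in the lists of UPR genes and of heat shock genes, and they are shown because they hold response elements known from these pathways. The sequences run 5′ to 3′ on the strand of the gene, with the matched letters in capitals. Herpud1, at chr8:94386179-94386478 on the plus strand, and Dnajb11, at chr16:22857595-22857894 on the plus strand, hold the ER stress response element II (ATTGG, 1 base, CCACG).
Herpud1: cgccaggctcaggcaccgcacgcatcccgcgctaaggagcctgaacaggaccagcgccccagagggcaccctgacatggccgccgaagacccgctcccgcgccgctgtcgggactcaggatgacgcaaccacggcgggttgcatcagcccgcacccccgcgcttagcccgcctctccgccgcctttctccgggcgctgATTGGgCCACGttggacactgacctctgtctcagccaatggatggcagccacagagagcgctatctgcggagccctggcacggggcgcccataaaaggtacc
Dnajb11: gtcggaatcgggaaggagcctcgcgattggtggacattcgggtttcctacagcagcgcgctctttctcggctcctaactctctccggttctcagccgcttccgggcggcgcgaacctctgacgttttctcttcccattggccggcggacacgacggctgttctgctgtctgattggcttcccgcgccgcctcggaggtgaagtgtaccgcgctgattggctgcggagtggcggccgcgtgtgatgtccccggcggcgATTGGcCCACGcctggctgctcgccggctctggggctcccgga
Pdia6, at chr12:17266339-17266638 on the plus strand, and Creld2, at chr15:88819396-88819695 on the plus strand, hold the ER stress response element (CCAAT, 9 bases, CCACG), which in Creld2 lies on the opposite strand and so reads CGTGG, 9 bases, ATTGG.
Pdia6: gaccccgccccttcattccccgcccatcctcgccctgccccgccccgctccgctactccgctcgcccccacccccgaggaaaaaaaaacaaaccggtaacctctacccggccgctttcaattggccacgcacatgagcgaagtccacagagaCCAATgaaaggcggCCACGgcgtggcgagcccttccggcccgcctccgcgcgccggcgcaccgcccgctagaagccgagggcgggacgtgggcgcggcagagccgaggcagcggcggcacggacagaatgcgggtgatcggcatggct
Creld2: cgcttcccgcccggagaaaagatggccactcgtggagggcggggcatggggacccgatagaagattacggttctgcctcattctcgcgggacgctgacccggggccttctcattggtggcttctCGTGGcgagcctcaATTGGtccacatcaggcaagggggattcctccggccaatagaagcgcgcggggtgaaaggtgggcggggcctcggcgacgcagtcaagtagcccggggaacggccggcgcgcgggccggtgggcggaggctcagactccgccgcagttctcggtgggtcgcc
Fkbp4, at chr6:128438607-128438906 on the minus strand, holds a heat shock element core (GAANNTTC), as does the promoter of Hspa1a, which is not printed.
Fkbp4: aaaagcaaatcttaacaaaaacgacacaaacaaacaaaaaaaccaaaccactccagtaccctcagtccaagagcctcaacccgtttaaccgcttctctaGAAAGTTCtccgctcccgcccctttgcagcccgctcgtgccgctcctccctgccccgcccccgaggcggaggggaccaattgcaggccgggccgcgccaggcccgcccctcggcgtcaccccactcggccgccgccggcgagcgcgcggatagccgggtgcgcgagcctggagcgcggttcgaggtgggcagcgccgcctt
Both strands were searched. The ER stress response element was found in 3 of the 166 member promoters (1.81%), those of Creld2, Pdia6 and Spats2l, and in 22 of the 16306 promoters of genes tested (0.135%). In the whole UPR list it was in 9 of the 25 genes with a promoter, of which Creld2 and Pdia6 were members. The element II was found in 2 member promoters (1.2%) and in 10 of those tested (0.0613%). Both elements share the letters CCACG with the reverse complement of the unfolded protein response element TGACGTGG. It was in 1.2% of member promoters and 0.803% of those tested, but the member matches were the same site in 2 overlapping promoters of Tfdp1. By gene it was in 0.769% of members with a promoter, against 0.976% of tested genes with one. The E-box CACGTG of clock factors was in 7.83% of member promoters against 9.17%, and the heat shock core GAANNTTC in 4.82% against 5.99%. In the heat shock list that core was in 10 of the 17 genes with a promoter, of which Fkbp4 and Hspa1a were members. Matches describe letters in a window and not binding.

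Values are given as CPM, read counts scaled to the normalized library size, which could be recovered from the deposited values for 138 of the 150 members, and differences are given on log2(CPM + 1). CPM does not correct for transcript length, so levels are compared between mice and not between genes. Normalized library sizes were 29591262 to 34493349 reads. Markers of the anterior hypothalamus were present in every mouse, with Avp at 61.5 to 317 CPM, Oxt at 159 to 377 CPM and Six6 at 5.8 to 22.6 CPM. Of the pituitary markers, Prl, Gh and Fshb were at 0 in 41, 38 and 39 of 56 mice. Cga was at 0 in 25 and reached 13.8 CPM, and Lhb and Tshb were at 0 in none. Markers of neighbouring tissue varied widely, such as Ppp1r1b (17.5 to 250 CPM), Prkcd (10.5 to 133 CPM) and Ptgds (171 to 1643 CPM). How much neighbouring tissue each sample held was not tested.

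The DRF ZT16 libraries of replicates 3 and 4 stood apart from the other 54. In them, log2(CPM + 1) rose with the GC content of the transcript, relative to the mean of all libraries, by 0.28 and 0.43 per 10 percentage points, against -0.13 to 0.13 in the 54 others. Replicates 1 and 2 of the same time lay at -0.025 and -0.024. DRF ZT12 replicate 4 had the highest slope of the 54 others. Members high at ZT4 and ZT16 had a median GC content of 53.5% and members low at these times 45.4%, against 49.9% over all genes tested. Values of single mice are therefore given in the order of replicates 1 to 4, and the summaries are repeated without these 2 libraries. The part of GC content in the members' pattern was not tested beyond the values given below.

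**Figure D1:**
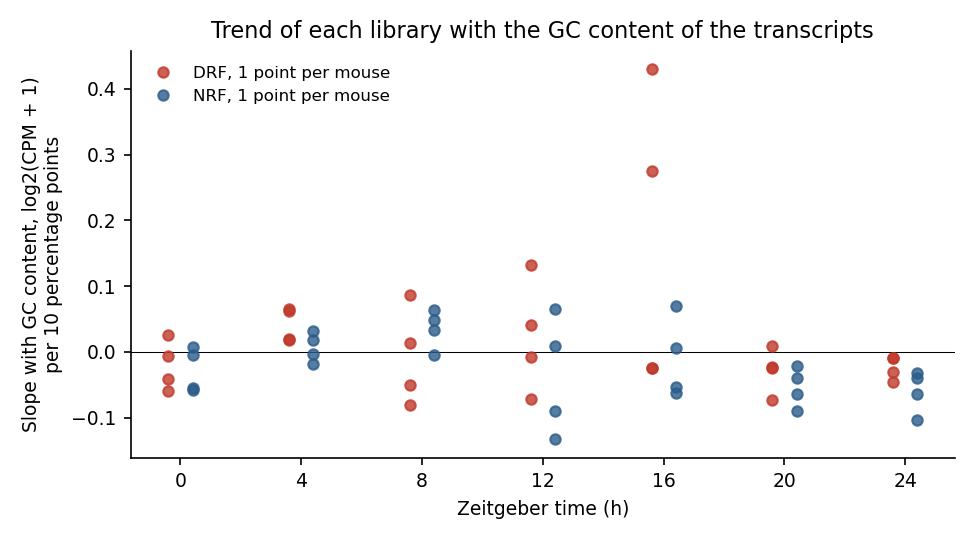
Slope of log2(CPM + 1) with transcript GC content, per 10 percentage points, in each of the 56 libraries (y axis) by Zeitgeber time (x axis, h), with 1 point per mouse coloured by regimen. DRF ZT16 replicates 3 and 4 lie at 0.28 and 0.43, and the other 54 libraries between -0.13 and 0.13.

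In DRF the members formed 2 mirror-image groups. Of the 150, 116 were high at ZT4 and at ZT16, the middle of the light and of the dark phase, and 34 were low at both times. The 12-h peak of the first group lay between 3.02 and 5.21 h (circular mean 3.96 h) and that of the second between 9.17 and 11.1 h, each recurring 12 h later. No member peaked at other phases. A shape with exactly 2 local maxima at ZT4 and ZT16 was seen in 114 members, against 24.6% of all genes tested, a comparison that the ranking used and from which nothing is read.

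For each mouse, the median over the members was taken after each gene had been centred on its mean over the 56 mice. Among members high at ZT4 and ZT16, this median was 0.13 ± 0.018 at DRF ZT4 and 0.22 ± 0.094 at ZT16 (mean ± SD, n = 4), and it was negative on average at the other 5 time points, from -0.10 at ZT24 to -0.0079 at ZT12. The 4 mice at ZT16 lay at 0.14, 0.15, 0.32 and 0.29, the last pair being replicates 3 and 4. Among the low members the median was -0.17 at ZT4 and -0.28 at ZT16, with 0.18 at ZT0 and 0.13 at ZT24. The mice of ZT4 were close to each other, whereas those of ZT16 fell into the 2 libraries with a GC trend and the 2 without, and both pairs lay on the same side.

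**Figure D2:**
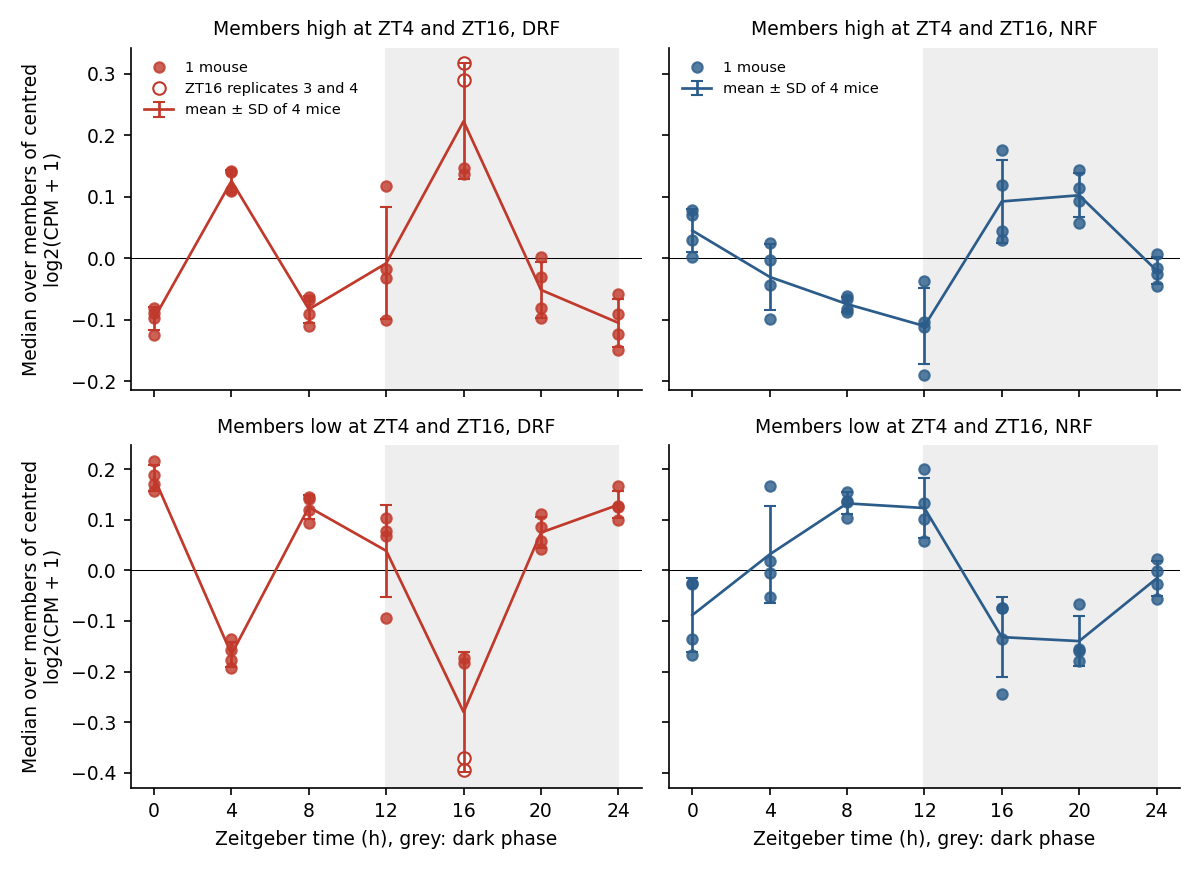
Median over members of centred log2(CPM + 1) (y axis) by Zeitgeber time (x axis, h, dark phase in grey), with 1 point per mouse and lines with bars for the mean ± SD of 4 mice. The upper panels hold the 116 members high at ZT4 and ZT16 in DRF and the lower panels the 34 low ones, in DRF (left) and NRF (right), and open points mark DRF ZT16 replicates 3 and 4. In DRF the high members have peaks and the low members troughs at ZT4 and ZT16, whereas in NRF the high members have a single rise and the low members a single fall at ZT16 and ZT20.

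The size of the pattern was modest. The median 12-h amplitude of the members, the height of the 12-h curve above its mean, was 0.17 on log2(CPM + 1) in DRF, which is a 1.26-fold difference between the peak and the trough of that curve. Over all genes tested, the median was 0.067. The 12-h amplitude exceeded the 24-h amplitude in 146 of the 150 members in DRF. In 89 members the 4 mice of DRF ZT4 were all on one side of the 12 mice of ZT0, ZT8 and ZT24, against 2.4% of genes tested, and in 73 the 4 mice of ZT16 were all on one side of the 8 mice of ZT12 and ZT20, against 2.59%. Both times together stood apart in 12 members, against 0.0862%. With DRF ZT16 replicates 3 and 4 left out, the ZT16 mice were all above their neighbours in 70 members and all below in 10, against 8.78% for both directions together. The 12-h terms of the limma fit passed an adjusted p of 0.05 in 149 members, against 7.68% of genes tested, and also in 149 without the 2 libraries, against 3.13%. All these counts come from the values that chose the members.

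**Figure D3:**
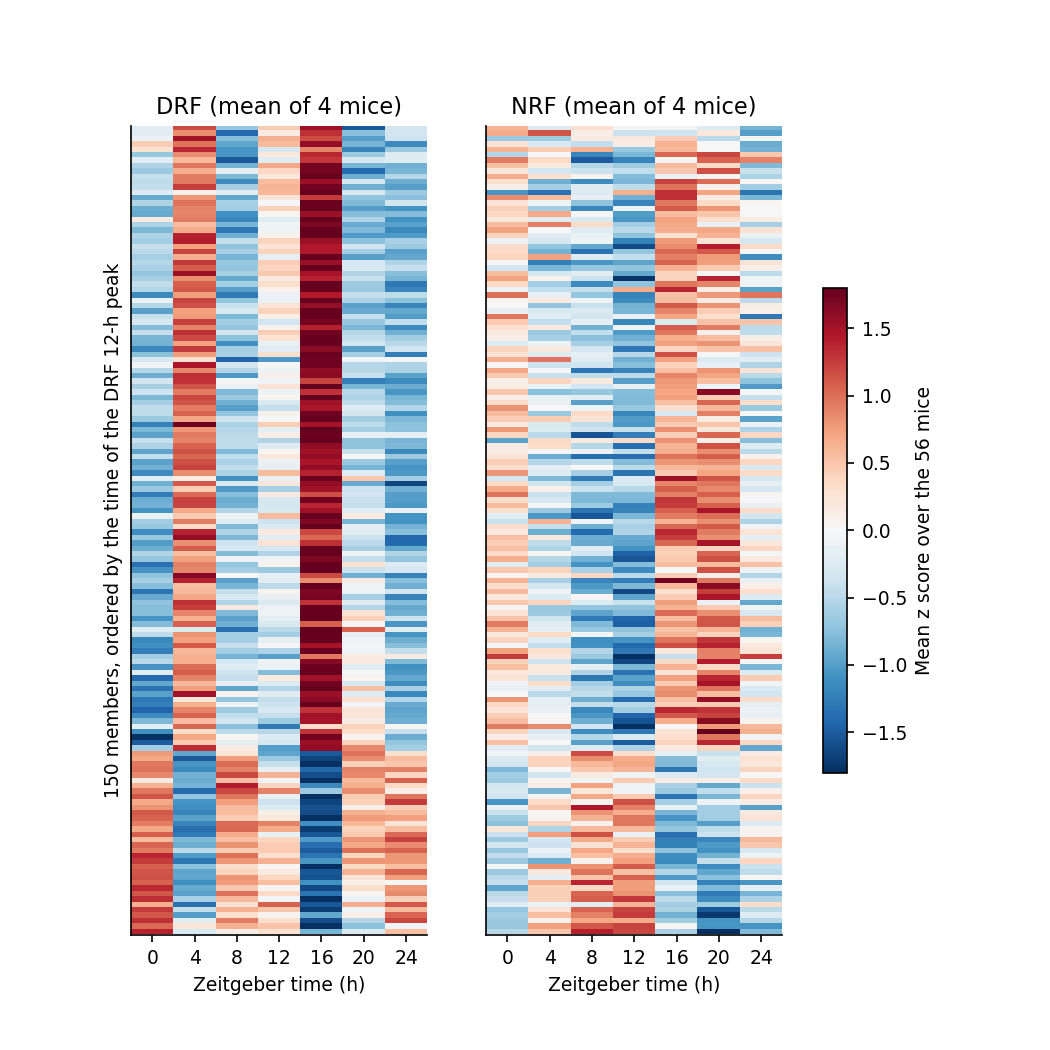
Mean z score of the 4 mice at each time (colour, red above and blue below the gene's mean over all 56 mice) for the 150 members (rows, in the order of their DRF 12-h peak) by Zeitgeber time (columns, h) in DRF and NRF. In DRF the rows of the 116 high members are mostly red at ZT4 and ZT16 and those of the 34 low members mostly blue, whereas in NRF most of the extremes lie at ZT8, ZT12, ZT16 and ZT20.

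Of the members, 8 belonged to the list of 30 UPR genes and ER chaperones, and all 8 were high at ZT4 and ZT16 in DRF. Sdf2l1, an ER lumen protein that works with the co-chaperone Dnajb11, had the largest 12-h amplitude of the members, 0.46 ± 0.042 (SE, 28 mice). Its gene lies at chr16:17130138-17132383 (GRCm38.p6). The DRF mice were at 13.4, 12.8, 13.1 and 15 CPM at ZT4 and at 13.5, 15.5, 17.9 and 14.9 CPM at ZT16, and at 7.04, 7.16, 7.04 and 7.29 CPM at ZT0. All 8 mice of ZT4 and ZT16 lay above the other 20 DRF mice, whose highest value was 11.6 CPM. The mean at ZT4 was 1.73 times that of ZT0, ZT8 and ZT24, and the mean at ZT16 was 1.58 times that of ZT12 and ZT20.

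Herpud1, a membrane protein of ER-associated degradation, had the highest F of all genes tested. Its DRF mice were at 87.8, 84.7, 80.5 and 83.1 CPM at ZT4 and at 87.7, 89.4, 94.0 and 91.0 CPM at ZT16. The neighbouring times ranged from 65.0 to 74.1 CPM around ZT4 and from 67.9 to 84.0 CPM around ZT16, so the groups did not overlap at either time. Its means were 1.21 and 1.23 times those of the neighbours, and the amplitude was 0.20 ± 0.020. Herpud1 thus ranked first with a smaller amplitude than Sdf2l1, Creld2, Pdia4 and Manf.

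Creld2, an ER protein induced by ER stress, was at 20.3, 22.2, 19.2 and 20.7 CPM in the DRF mice of ZT4 and at 19.6, 22.0, 27.6 and 22.9 CPM in those of ZT16. The mice of ZT8 lay between 12.6 and 13.9 CPM, and 3 of the 4 mice of ZT12 between 13 and 14.2 CPM. The other ZT12 mouse, replicate 4, was at 19.8 CPM, inside the range of ZT16. The amplitude was 0.41 ± 0.041.

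Manf, an ER-resident protein with neurotrophic activity, was at 68.8, 69.8, 66.5 and 75.4 CPM at DRF ZT4 and at 66.7, 68.5, 83.5 and 69.5 CPM at ZT16. Its 8 mice of these times also lay above the other 20, whose highest value was 64.8 CPM, again ZT12 replicate 4. Pdia4, a protein disulfide isomerase, was at 76.4, 69.2, 71.4 and 74.7 CPM at ZT4 and at 76.2, 79.8, 84.6 and 73.8 CPM at ZT16, above all mice of the neighbouring times (45.9 to 61.8 and 52.0 to 70.1 CPM). The amplitudes were 0.30 ± 0.035 for Manf and 0.30 ± 0.033 for Pdia4.

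Xbp1, the transcription factor spliced by IRE1, reached 147, 152, 154 and 154 CPM at DRF ZT4 and 144, 148, 148 and 130 CPM at ZT16. Its ZT4 mice lay above all neighbours, whereas at ZT16 the mouse at 130 CPM, replicate 4, fell below ZT12 replicate 4 at 144 CPM. Xbp1 was therefore higher at ZT4 than at ZT16, in contrast to the 106 members whose highest DRF mean was at ZT16. Pdia6, another disulfide isomerase, had an amplitude of 0.19 ± 0.027 and Dnajb11, the ER co-chaperone of Hspa5, one of 0.19 ± 0.028. The table counts all Xbp1 transcripts together, so the spliced form was not seen.

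**Figure D4:**
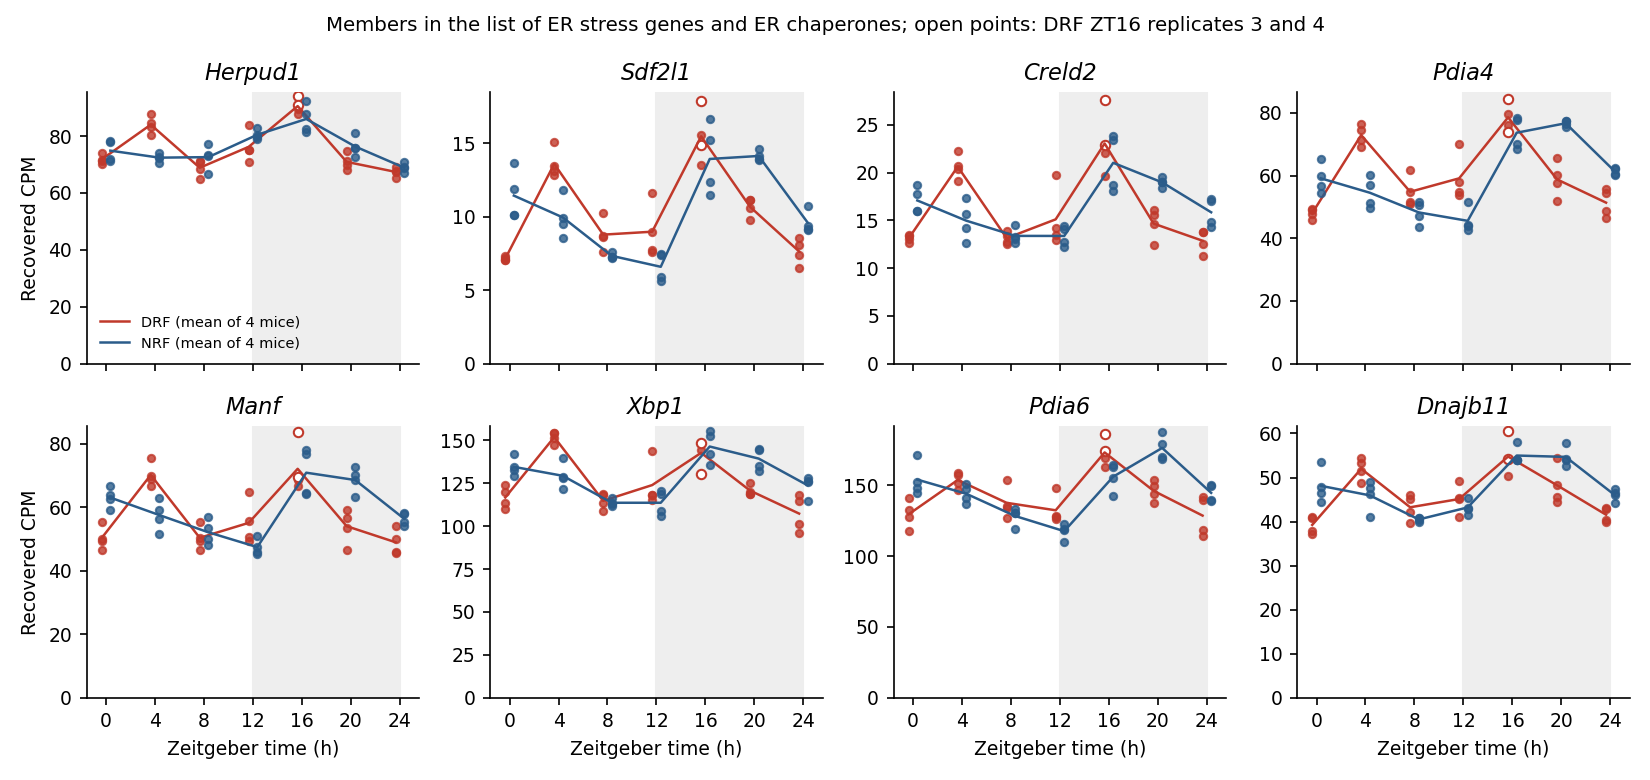
Recovered CPM (y axis, from 0) by Zeitgeber time (x axis, h, dark phase in grey) for the 8 members in the list of UPR genes and ER chaperones, with 1 point per mouse and lines through the means of 4 mice, in DRF (red) and NRF (blue). Open points mark DRF ZT16 replicates 3 and 4. In DRF each gene has a peak at ZT4 and at ZT16, and in NRF the values fall or stay level at ZT4 and rise between ZT12 and ZT16.

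The list of 22 cytosolic heat shock genes held 4 members, Fkbp4, Dnajb1, Hspa1a and Ahsa1. Fkbp4, the HSP90 co-chaperone of steroid receptors, was at 208, 196, 217 and 212 CPM at DRF ZT4 and at 222, 219, 263 and 264 CPM at ZT16. Its neighbouring mice lay at 153 to 180 CPM around ZT4 and 177 to 210 CPM around ZT16, so they did not overlap. The highest of the latter was ZT12 replicate 4. Its amplitude was 0.23 ± 0.025.

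Dnajb1, an HSP40, was at 106, 84.2, 88.8 and 95.3 CPM at DRF ZT4 and at 102, 102, 109 and 106 CPM at ZT16. At ZT12 it was at 78.4, 81.0, 78.9 and, in replicate 4, 113 CPM, above every mouse of ZT16. Ahsa1, the activator of the HSP90 ATPase, had an amplitude of 0.17 ± 0.027, with ZT16 mice at 124 to 151 CPM and their neighbours at 95.2 to 119 CPM. Hspa1a, the inducible HSP70, gave no whole reads, and its deposited values were 84.7, 75.4, 80.9 and 83.0 at ZT4 and 82.6, 88.5, 86.3 and 83.9 at ZT16. It has a near-identical copy, Hspa1b, which ranked 153, so reads may have been split between them.

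Other members high at ZT4 and ZT16 served varied functions. P4ha2, a collagen prolyl 4-hydroxylase of the ER, was at 21.6, 19.6, 21.0 and 20.8 CPM at DRF ZT4 and at 25.3, 29.2, 28.2 and 27.1 CPM at ZT16, apart from its neighbours at both times (13.6 to 18.6 and 15 to 19.7 CPM). Zbtb40, a zinc finger protein, had an amplitude of 0.45 ± 0.056, with 23.3, 19.0, 21.4 and 22.0 CPM at ZT4 against 8.68 to 13.8 CPM around it. Cys1, a protein of primary cilia, had an amplitude of 0.36 ± 0.037. P4ha2 was higher at ZT16 than at ZT4, and Zbtb40 reached about the same values at both times.

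Nfil3, a transcriptional repressor of the clock output, was the only member among 21 core clock genes. It was at 11.8, 11.1, 10.8 and 12.4 CPM at DRF ZT4 and at 11.9, 12.3, 14.0 and 12.8 CPM at ZT16, and its lowest time was ZT8 with 7.89 to 9.17 CPM. At ZT16 its mice lay apart from their neighbours, and at ZT4 they overlapped. Hspa2, an HSP70 family member, was at 41.0, 44.2, 47.5 and 44.6 CPM at ZT16 against 28.2 to 36.9 CPM around it, and its ZT4 mice (30.3 to 37.4 CPM) overlapped with their neighbours. Further members that reside or act in the ER were Plod3, Serpinh1, Gpx7, Prkcsh, Lman2, Jagn1 and Ficd, which were picked out after their values had been seen.

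The 34 low members held none of the listed UPR and heat shock genes. Blm, a RecQ helicase, was at 4.73, 4.60, 4.53 and 3.89 CPM at DRF ZT4 and at 4.43, 4.06, 3.21 and 2.93 CPM at ZT16, against 6.85, 6.94, 6.69 and 7.23 CPM at ZT0. Its ZT4 mice lay below all neighbours, and at ZT16 3 of 4 did, since ZT12 replicate 4 was at 4.34 CPM. Uvssa, a factor of transcription-coupled repair, had an amplitude of 0.36 ± 0.052, and Kif15, a mitotic kinesin, one of 0.22 ± 0.034. Zkscan2, a zinc finger factor, was at 0.69 times its neighbours at ZT16, where its mice (21.5 to 27.6 CPM) overlapped with them.

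Nxpe4 ranked highest among the low members, with an amplitude of 0.29 ± 0.036 and ZT4 mice at 10.4 to 12.8 CPM against 15 to 18.3 CPM around them. Lss, lanosterol synthase, the only member among 24 genes of cholesterol and fatty acid synthesis, had an amplitude of 0.17 ± 0.026. The median 12-h amplitude of the low members was 0.22, against 0.16 in the high ones. Low members also had longer transcripts, with a median of 4814 bases against 2800 in the high members and 3331 over all genes tested.

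Without DRF ZT16 replicates 3 and 4, the pattern was smaller and kept its direction. Each of the 116 high members was still above the mean of its neighbouring times at ZT4 and ZT16, and each of the 34 low members below. The 12-h amplitude was lower in 115 of 138 members, with a median ratio of 0.88 to the amplitude in all mice, and no peak moved by more than 0.19 h. The ranking itself changed more, as 95 of the 150 (78 high and 17 low) stayed in the top 150 and the lowest went to rank 337. All 150 stayed within the first 1000.

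The relative height of the 2 peaks depended on these libraries. The median excess of the high members over the mean of the neighbouring times was 0.21 at ZT4 and 0.25 at ZT16 on log2(CPM + 1), and without replicates 3 and 4 the ZT16 excess was 0.16. For the low members the differences were -0.32 at ZT4 and -0.33 at ZT16, the latter -0.24 without the 2 libraries. The ZT4 excess was larger in size than that of ZT16 in 48 of 138 members with all mice and in 92 of 138 without the 2 libraries. Which peak was larger thus changed with these libraries.

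A further ranking, added after the data were seen, removed from every library its trend with GC content, transcript length and mean level of the genes. Of the 150 members, 43 stayed in the top 150 (30 high and 13 low) and 122 in the top 1000, and the lowest went to rank 15573. The direction was kept more widely, as 110 of the 116 high members were still above their neighbours at both times and 32 of the 34 low members below. The median amplitude was 0.78 times that before. Among the ER genes, Sdf2l1, Creld2, Pdia4, Manf and Pdia6 stayed in the top 150, whereas Dnajb11 went to rank 169, Herpud1 to 368 and Xbp1 to 992. Of the 4 heat shock members, Hspa1a stayed, and Ahsa1 went to rank 213, Dnajb1 to 216 and Fkbp4 to 220, while Nfil3 went to 157 and Lss to 734. In all 3 rankings, 37 members were in the top 150. DRF ZT12 replicate 4 lay towards the ZT16 values in Creld2, Dnajb1 and Blm, and without it, also added later, 122 members stayed.

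In NRF the same genes had 1 broad rise, or fall, in the dark phase in place of 2 peaks or troughs. Among the 116 members high at ZT4 and ZT16 in DRF, the median over members was -0.11 ± 0.062 at NRF ZT12, 0.093 ± 0.068 at ZT16 and 0.10 ± 0.036 at ZT20 (mean ± SD, n = 4 mice), and it went from 0.045 at ZT0 to -0.030 at ZT4 and -0.074 at ZT8. The 4 mice of ZT16 were at 0.18, 0.12, 0.045 and 0.031. The low members mirrored this, with 0.12 at ZT12, -0.13 at ZT16 and -0.14 at ZT20. At ZT4, where DRF mice had a peak, the NRF medians of both groups lay on the way between ZT0 and ZT8.

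Per gene, the highest NRF mean of the 116 high members was at ZT20 in 63 and at ZT16 in 47, and the lowest at ZT12 in 63 and at ZT8 in 43. The ZT16 mean was above the mean of ZT12 and ZT20 in 111 of the 116 and in 1 of the 34 low members, against 48.5% of all genes tested. The ZT4 mean was above that of ZT0 and ZT8 in 45 of the 116, and both held in 41 of the 116, against 21.2% of all genes. The median excess at ZT4 was 0.0010 in NRF, and at ZT16 it was 0.098. A shape with maxima at ZT4 and ZT16 was seen in 8 of 150 members, against 5.77% of genes tested. In single mice the NRF ZT16 values stood apart from all neighbours in 3 members (0.548% of genes tested), above them in 1 (0.172%) and below in 2 (0.376%), among them Nxpe4, and at ZT4 in 0 (0.154%). The ZT16 excess of the means was thus shared by both regimens, and the ZT4 excess was near 0 in NRF.

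The 12-h terms were tested in the 28 NRF mice alone, which the ranking had not used, with limma's moderated F test and Benjamini-Hochberg adjustment over all 16245 genes. Of the members, 1, Cldn5, passed an adjusted p of 0.05, and it was the only gene that did on the deposited scale (0.00616% of genes tested). On log2(CPM + 1), where 13927 genes could be tested, 4 members passed, Cldn5, Sdf2l1, Pdia4 and Pdia6, against 0.0862% of those genes. At an unadjusted p under 0.05, 56 of the 150 members passed, against 11.9% of genes tested. The NRF 12-h curve pointed towards the DRF one, with a peak within 3 h, in 134 of 150 members, against 64.1% of all genes. The 12-h amplitude was smaller in NRF than in DRF in 150 of 150 members, which choosing them by their DRF values favours and which was not tested, with a median of 0.054 against 0.17 in DRF and 0.042 over all genes in NRF.

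**Figure D5:**
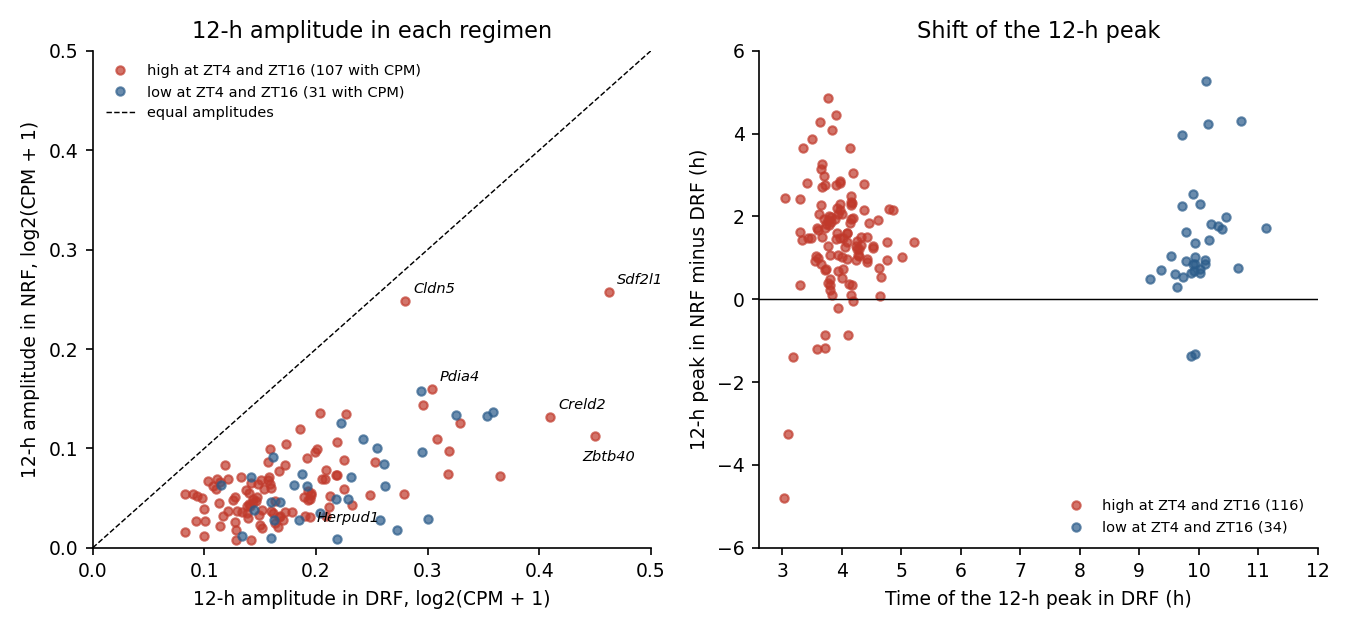
Left, 12-h amplitude on log2(CPM + 1) in NRF (y axis) against DRF (x axis) for the 138 members with CPM, with a dashed line where both are equal. Right, time of the 12-h peak in NRF minus that in DRF (y axis, h) against the DRF peak (x axis, h) for all 150 members. Every point on the left lies below the line, Cldn5 nearest to it among the large amplitudes, and on the right 139 points lie above 0.

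Cldn5 (chr16:18776847-18778262), the tight-junction protein of brain endothelium, had a 12-h amplitude of 0.25 ± 0.033 (SE) in NRF with an adjusted p of 0.00500 by limma, beside 0.28 ± 0.047 in DRF. Its NRF mice were at 15.2, 12.6, 12.7 and 12.4 CPM at ZT12 and at 21.3, 24.5, 21.5 and 20.5 CPM at ZT8, and the other times ranged from 22.0 to 34.1 CPM. The ZT12 mice lay below all other NRF mice. The ZT16 mice (22.0 to 25.8 CPM) lay below those of ZT20 (26.8 to 31.4 CPM), so Cldn5 had a single low time and no peak at ZT16 in NRF, and its 24-h terms passed as well (adjusted p 1.31e-09 by limma). The adjusted p by limma ranged from 0.00296 to 0.80 over 13 settings, the main one among them, and was under 0.05 in 9. The call was lost without ZT24 and without replicate number 2, 3 or 4. In DRF, all 4 of its ZT4 mice (28.9 to 31.6 CPM) lay above the neighbouring times (14.8 to 27.5 CPM). Its DRF mean at ZT16 (26.2 CPM) was slightly below that at ZT20 (26.5 CPM), so ZT16 was no separate peak in DRF either. Only 1 of the 4 DRF ZT16 mice lay above all neighbours. Cldn5 did not stay a member in the ranking without DRF ZT16 replicates 3 and 4, nor in that with library trends removed. Cldn5 was the only member among the 9 endothelial and mural markers.

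No UPR member passed the test of the NRF 12-h terms on the deposited scale, whereas on log2(CPM + 1) Pdia4 (adjusted p 0.019 by limma), Sdf2l1 (0.032) and Pdia6 (0.032) did. Sdf2l1 had a 12-h amplitude of 0.26 ± 0.042 in NRF with an adjusted p of 0.056 by limma on the deposited scale, and its NRF mice were at 5.89, 7.39, 5.59 and 7.45 CPM at ZT12, at 15.2, 16.7, 12.3 and 11.5 CPM at ZT16 and at 14.6, 13.9, 13.8 and 14.1 CPM at ZT20. The mice of ZT12 lay below all those of ZT16 and ZT20, which overlapped. At ZT4 they were at 11.8, 8.54, 9.92 and 9.51 CPM, within the range of ZT0, ZT8 and ZT24 (7.18 to 13.6 CPM). On the deposited scale the limma adjusted p was 0.13 for Pdia4 and for Pdia6, 0.20 for Manf and for Xbp1, 0.28 for Creld2 and 0.47 for Herpud1.

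Pdia4 in NRF was at 44.4, 43.8, 42.5 and 51.5 CPM at ZT12, at 78.2, 77.7, 70.1 and 68.6 CPM at ZT16 and at 77.4, 75.5, 76.4 and 77.5 CPM at ZT20. The mice of ZT4, at 49.7 to 60.3 CPM, overlapped with those of ZT0 and ZT8. Of its list, 15 of the 30 genes had an unadjusted p under 0.05 for the NRF 12-h terms and 0 an adjusted one by limma on the deposited scale. On log2(CPM + 1), 4 of the 29 genes with CPM had an adjusted p under 0.05, Pdia4, Pdia6, Sdf2l1 and Calr, which is no member, and the median NRF amplitude of the list was 0.069. In DRF, 19 of the 30, among them the 8 members chosen for this shape, were above their neighbours at both times, and in NRF 13. Lists with few or no members were not lower. Cytosolic ribosomal proteins had 58 of 81 in DRF and 47 in NRF, the respiratory chain 57 and 69 of 81, mitochondrial ribosomal proteins 47 and 38 of 75 and the proteasome 29 and 30 of 47. Other lists were lower, such as the core clock with 6 and 3 of 21, so the count is no trait of the UPR list.

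The NRF pattern of the members was mainly a 24-h one. The 24-h terms passed an adjusted p of 0.05 by limma in 115 of the 150 members, against 37% of genes tested. The median 24-h peak in NRF was at 19.8 h in the high members and at 8.48 h in the low ones. The median 24-h amplitude was 0.11 in NRF and 0.067 in DRF, and over all genes 0.073 and 0.053. The 24-h amplitude exceeded the 12-h one in all but 16 members in NRF. Among the ER genes, the 24-h amplitude in NRF was 0.47 for Sdf2l1, 0.36 for Pdia4 and 0.12 for Herpud1. The 12-h peak came later in NRF than in DRF in 139 members, and the median shift over all 150 was 1.45 h (quartiles 0.78 and 2.13 h). The NRF 12-h amplitudes were small, so these peak times are loosely set. The share of later peaks over all genes is not given, and nothing particular to the members is read from the shift.

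The mean level over the day was compared between the regimens as well. In a limma test over all 56 mice, whose spread includes the DRF values that chose the members, 9 of the 150 were higher in DRF, against 5.84% of genes tested, and 0 were lower, against 2.19%. At an unadjusted p under 0.05, 3 members were lower, against 8.98%, all of them low at ZT4 and ZT16. Hspa2 had the smallest adjusted p (0.000204), with a difference of 0.18 ± 0.031 (SE) on log2(CPM + 1). Proser3 had the next largest difference among those with CPM, 0.12 ± 0.033 with an adjusted p of 0.017. Bicdl1, Hspa1a, Matn4, Cables1, Txlna, Sin3b and Samd14 were the others. Without DRF ZT16 replicates 3 and 4 the count was 4, and with the library trends removed it was 1.

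The other pathways that were listed are given with their sizes. Members were 150 of the 16245 genes tested, so a list of such a size would hold few or none in any case. Nothing is read from these counts. Mitochondrial ribosomal proteins gave 2 of 75 (Mrpl45 and Mrps6). None of the 20 immediate early genes, 17 glucocorticoid targets, 16 genes of FOXO and the fasting response, 25 neuroendocrine and suprachiasmatic peptides, 18 genes of MAPK and cAMP feedback, 22 synaptic genes, 20 genes of chromatin and RNA polymerase II, 81 cytosolic ribosomal proteins, 81 genes of the respiratory chain and 47 proteasome genes was a member. Within the list of UPR genes and ER chaperones, 13 of 30 were in the first 1000 of the ranking and the median rank of the list was 3349. The central ER chaperone Hspa5 ranked 394 with a DRF 12-h amplitude of 0.18 and Calr, a lectin chaperone, 424 with 0.12, whereas Hsp90b1, the ER HSP90, ranked 8906 with 0.067. The median rank of the heat shock list was 940.5.

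Markers of other cell types were examined beside the members. All 5 red blood cell markers were above their neighbours at both ZT4 and ZT16 in DRF and 0 of 5 in NRF, and none was at 0 in any mouse. Their summed deposited value was 1939.61 to 2626.39 at DRF ZT4, 1755.2 to 2259.92 at ZT16 and 1601.37 to 2230.21 at the other times. In NRF it was 1593.26 to 1726.32 at ZT4, 1624.2 to 1934.57 at ZT16 and 1547.96 to 1976.06 at the other times. The ranges overlapped within each regimen, and none of these markers was a member. The part of blood in the members' pattern was not tested. Of the 10 anterior hypothalamus markers, 6 were above their neighbours at both times in DRF and 2 in NRF. The DRF counts differed between the marker lists. Astrocytes had 1 above and 5 below of 8, microglia 2 and 4 of 8, meninges 0 and 4 of 6, and oligodendrocytes 4 and 1 of 9. The share of genes above at both times was 21.2% over all genes in NRF. That in DRF is not given, and nothing is read from these counts.

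The membership had no clear edge. The last members were Samd14, Zfand1 and Armcx5, with F of 17.5, 17.4 and 17.4, and the genes just outside were Cfp, Bag3 and Hspa1b, with 17.3, 17.3 and 17.2. Bag3, a co-chaperone of HSP70, and Hspa1b belong to the heat shock response as well.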

How the data were processed

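RNA from the anterior hypothalamus of 56 mice (2 regimens, 7 time points, n = 4 mice per group) was read on a BGISEQ-500. The authors aligned reads to GRCm38.p6 (mm10) and the submitters' processing notes name HISAT2, Bowtie2 and RSEM, without versions. The deposited values are named TPM but are treated here as a score, because they behave as log2(CPM + 1) divided by transcript length and rescaled to nearly the same total in each sample (999333 to 999720). This compresses high values, and log2(value + 1) understates changes of abundant genes. CPM were recovered by inverting this scale where all or nearly all mice with a value above 0 then gave whole reads within 0.05 (13927 of 16245 genes tested). For 740 of the 17564 genes in the table, the transcript length was itself searched for one that gave whole reads. The unrecovered genes kept their deposited score.

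Ranking and tests used log2(value + 1), as the rule states, with a pseudocount of 1. Tests were made with limma 3.58.1 (trend, moderated F) in R 4.3.3, adjusted over all genes tested, and checked on simulated data. Groups came from the sample titles. The NRF 12-h and 24-h terms were fitted in the 28 NRF mice, and the level in all 56. No source ties replicates to separate cages or batches, so p-values measure the spread between these mice. The members, gene lists and tests were chosen with earlier results of these data known. Named members were the 12 of highest F, the 8 of smallest adjusted p in NRF, the 8 of highest F without DRF ZT16 replicates 3 and 4, the last 3 members and the 3 genes after them, members in a gene list, the 5 of smallest adjusted p for a level difference in each direction and the 3 of largest amplitude in each of 3 phase classes. A member that this rule names is not reported here. Others named were chosen after their values were seen.

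Alternatives were a pseudocount of 0.1, no filter on low values, quantile normalization, log2(CPM + 1), a replicate block, leaving out ZT0, ZT24, each replicate number or DRF ZT16 replicates 3 and 4, and, chosen after seeing the data, removing library trends and leaving out DRF ZT12 replicate 4.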

Additional observations from a re-analysis of the deposited data

Results flagged for a closer look

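Within groups of 4 mice, 140 groups (the 8 UPR members and the medians of the high and of the low members, at each time and regimen) were examined for a mouse far from the rest, and 7 held one by Dixon's ratio, the gap to the nearest mouse divided by the range, above its 95% limit for 4 mice, which about 1 group in 20 passes by chance. Sdf2l1 in NRF at ZT24 had a ratio of 0.834, with 1 mouse at 10.7 CPM and the others at 9.09 to 9.36 CPM. Manf in DRF at ZT16 had 0.834, through replicate 3 at 83.5 CPM. Pdia6 and Xbp1 in DRF at ZT12 had 0.903 and 0.898, in both through replicate 4 (148 and 144 CPM), a mouse that lay towards the ZT16 values in other members too. Xbp1 had 0.834 in DRF at ZT20 (125 CPM in 1 mouse) and 0.831 in NRF at ZT24 (115 CPM in 1 mouse). Dnajb11 in NRF at ZT16 had 0.954, with 1 mouse at 58.0 CPM and the others at 53.9 to 54.1 CPM.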

How the results depend on the processing

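The counts of members called were 1 for the NRF 12-h terms, 115 for the NRF 24-h terms, 9 for a higher and 0 for a lower level in DRF. The median NRF part along the DRF direction stayed positive under all alternatives run, whereas several counts moved, as given below. Which DRF peak was larger in most members changed without DRF ZT16 replicates 3 and 4, as given above. Quantile normalization called 2 members and 3 genes for the NRF 12-h terms and kept 99 members. On log2(CPM + 1), with 13927 genes, 4 members and 12 genes were called, 3 members had a higher level, the median DRF amplitude was 0.167 (0.0451 on the deposited scale) and the median NRF part along the DRF direction 0.0367 (0.00914). Removing library trends, chosen after seeing the data, called 3 genes and 1 member with a higher level and kept 43 members. Without ZT24, 0 members and 0 genes were called, and without ZT0 7 members, 76 genes and 5 higher levels. Without DRF ZT16 replicates 3 and 4 there were 4 higher levels and 95 members kept. Leaving out 1 replicate number at a time gave 0 to 1 members and 0 to 2 genes for the NRF 12-h terms, 1 to 12 higher levels and 91 to 110 members kept, and without DRF ZT12 replicate 4, also chosen after seeing the data, 122 were kept. The causes were not tested. The Cldn5 call in NRF was lost without ZT24 and without replicate 2, 3 or 4. With the replicate block, 3 genes passed the NRF 12-h terms in place of 1. Over both regimens together, same-numbered mice had a median r of -0.0034 over 364 pairs, and 10 of 56 mice were closest to their own number. Within a regimen, 15 of 28 NRF and 12 of 28 DRF mice were closest to their own number, with a median r of 0.012 and 0.0058. These shares were higher than that over both regimens, and whether they exceed chance was not tested. The NRF medians of the high members fell in order from replicate 1 to 4 at ZT16, at ZT20 (0.14 to 0.058) and at ZT24 (0.0076 to -0.044), and not at ZT0, ZT4, ZT8 or ZT12. Neither the labels nor every pair's correlation ties the numbers, so the mice were not treated as paired. Depth limits the rarest members, such as Blm, more than Fkbp4 or Pdia6.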
